A study of Homo sapiens with 6 samples.

Results

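The genes described here are the transcription factor ATF4 and 9 of its known targets in the amino acid and stress response: DDIT3, TRIB3, ASNS, PHGDH, PSAT1, AARS1, CHAC1, SESN2 and DDIT4. They were chosen by gene symbol, 10 of the 18417 genes that the array annotation names through a probe set with 1 symbol. The choice was made with results of these arrays known, above all that ASNS differed in opposite directions in 92.1 and Mel 270. Differences between co-culture and growth alone are therefore given for these 10 genes as values, without a test. Total RNA was measured on 6 Affymetrix arrays of 3 established human lines of uveal melanoma, a tumour of melanocytes of the eye. The lines are called 92.1, Mel 270 and Mel 290. In the co-culture group each line was grown for 64 h below a membrane insert with 0.4 µm pores. The insert held T cells from healthy volunteers, activated with beads against CD3 and CD28. In the group grown alone the same lines had no T cells. All 6 cultures were in serum-free X-VIVO 15 medium with 300 µg/mL glutamine, after 80000 cells of 92.1 or 100000 cells of Mel 270 or Mel 290 had been plated. Mel 290 was confluent at the change of medium and the other lines were not yet. There was 1 array per line and culture, so no line had repeat cultures.

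ATF4 is the effector of the integrated stress response. Stress kinases phosphorylate the translation factor eIF2alpha, which lowers protein synthesis in general but raises translation of the ATF4 mRNA, so that ATF4 activity need not follow its mRNA level. ATF4 pairs with C/EBP family proteins at composite sites called C/EBP-ATF response elements and switches on genes of amino acid synthesis, amino acid uptake and tRNA charging. Lack of an amino acid, unfolded protein in the endoplasmic reticulum, haem shortage and double-stranded RNA are its known triggers.

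The core of such an element, searched as TGATGNAA on both strands, was found in the RefSeq promoters of 3 of the 10 genes, ASNS, CHAC1 and AARS1. The promoter table (GRCh38.p14, 250 bases before to 50 after each start site) held all 10. The windows around these 3 matches, the only ones among the 10 genes, are shown. Capitals mark the match. In ASNS it reads on the gene's strand from base -68 before the start site, and in CHAC1 (base -209) and AARS1 (base -187) it reads on the opposite strand.
ASNS, chr7:97872419-97872526, minus strand: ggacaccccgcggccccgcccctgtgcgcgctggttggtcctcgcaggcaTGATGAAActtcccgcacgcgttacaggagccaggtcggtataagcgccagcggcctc
CHAC1, chr15:40953221-40953319, plus strand: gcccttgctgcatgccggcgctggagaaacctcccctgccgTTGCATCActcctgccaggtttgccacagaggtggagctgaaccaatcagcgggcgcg
AARS1, chr16:70289636-70289743, minus strand: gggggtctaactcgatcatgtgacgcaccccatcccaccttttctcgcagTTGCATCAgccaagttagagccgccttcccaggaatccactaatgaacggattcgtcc
A gene with several start sites counted if any of them had a match. The same letters occurred in 4.46% of the 27305 genes of the promoter table, and in 17 of 70 other genes of the pathway with a promoter there (24.3%). They were present in 6 of 15 cytosolic aminoacyl-tRNA synthetase genes and in 0 of 15 genes of the ATF6 and XBP1 arms of the unfolded protein response. A match describes the sequence and not a binding site, and elements outside this window were not searched.

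The deposited values are log2 signals per probe set, and a difference is the log2 signal in co-culture minus that alone. Levels are compared within a gene only. A level of 5.80, the 25th percentile of probe set means, served as the filter on low signal, and all 10 genes passed it. Array medians lay between 6.63 and 6.69. Of 12 T cell markers 5 were at or above the filter level on each co-culture array and 5 or 6 on each array grown alone. Their summed log2 levels ran from 69.7 to 73.1 in co-culture and from 70.2 to 72.4 alone, and CD3D, CD3E and CD3G were below the filter level on all 6 arrays. Among melanocyte markers MLANA, TYR and TYRP1 stood at 9.39 or more on the arrays of 92.1 and Mel 270. In Mel 290 these 3 stood at 5.19 or less in both cultures, below the filter level, while the other 4 of the 7 melanocyte markers measured were above it. There MITF stood at 8.16 in co-culture and 8.96 alone, and SOX10 at 7.25 and 6.84. PMEL (5.97 and 6.10) and MLPH (6.31 and 5.89) were near the filter level in Mel 290. In co-culture 10 of the 12 T cell markers were higher in Mel 290, 7 in 92.1 and 4 in Mel 270. Of 7 fibroblast markers 6 were higher in co-culture in Mel 290, against 1 in 92.1 and 2 in Mel 270, and in Mel 290 their summed log2 levels were 46.9 in co-culture and 42.5 alone. Most of that gap was LUM (2.62) and DCN (1.22), and DCN was below the filter level on all 6 arrays. The part of these markers in the results was not tested.

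In 92.1 the response genes stood higher in co-culture nearly throughout, in Mel 270 several stood lower, and in Mel 290 they differed little. In 92.1 7 of the 10 genes were at least 2-fold higher, beside 3.63% of the 13808 tested genes, and 0 were at least 2-fold lower (2.71%). In Mel 270 DDIT4 was at least 2-fold higher (5.29% of tested genes) and ASNS and PSAT1 were at least 2-fold lower (4.52%). In Mel 290 none was at least 2-fold higher (2.07%) or lower (2.3%). The median difference of the 10 genes was 1.31 in 92.1, -0.38 in Mel 270 and 0.02 in Mel 290, beside medians of -0.08, -0.06 and 0.01 over all tested genes. These shares concern the contrast that the choice of genes used, and with 1 array per line and culture they carry no test.

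**Figure D1:**
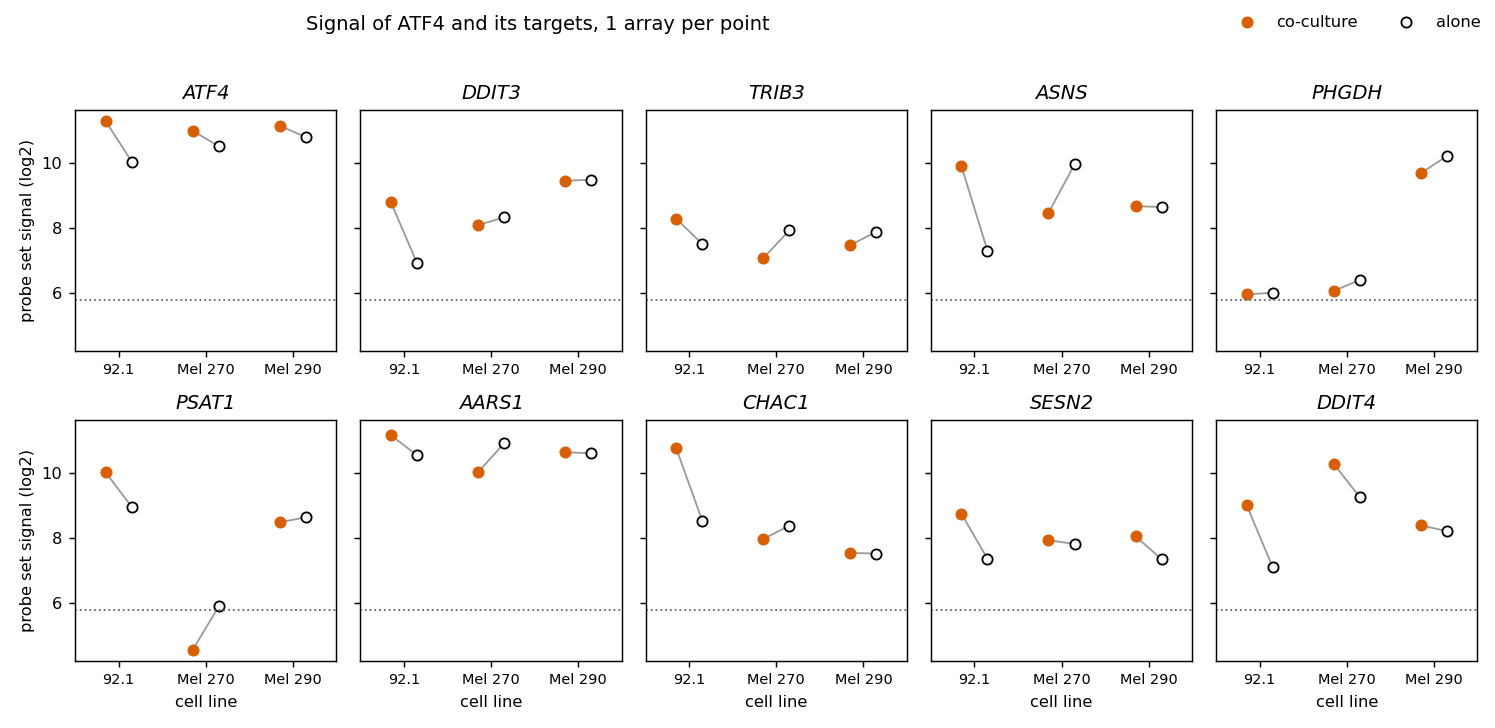
Log2 signal of the 10 genes (vertical axis) in each cell line (horizontal axis), with co-culture as a filled point left of the open point for growth alone; each point is 1 array and the dotted line is the filter level of 5.80. ASNS slopes in opposite directions in 92.1 and Mel 270, PHGDH is high in Mel 290 only, and PSAT1 lies lowest in Mel 270.

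ASNS encodes asparagine synthetase, which makes asparagine from aspartate and glutamine. Its signal (probe set 8141150) was 9.92 in co-culture against 7.31 alone in 92.1, 8.47 against 9.96 in Mel 270, and 8.68 against 8.65 in Mel 290. The 92.1 culture with T cells was thus 6.10-fold higher than its partner alone, and that of Mel 270 was 2.82-fold lower, with a difference of 0.03 in Mel 290. The differences of 92.1 and Mel 270 lay 4.10 apart. The highest of the 6 arrays was Mel 270 alone, followed by 92.1 in co-culture, Mel 290 in co-culture, Mel 290 alone, Mel 270 in co-culture and 92.1 alone. No spread between repeat cultures exists against which neighbours in that order could be judged. The lines stood furthest apart when grown alone, at 7.31 to 9.96, and lay between 8.47 and 9.92 in co-culture. Opposite differences of at least 2-fold in a pair of lines were found for 33 of 13808 tested genes (0.239%), among them ASNS and PSAT1.

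**Figure D2:**
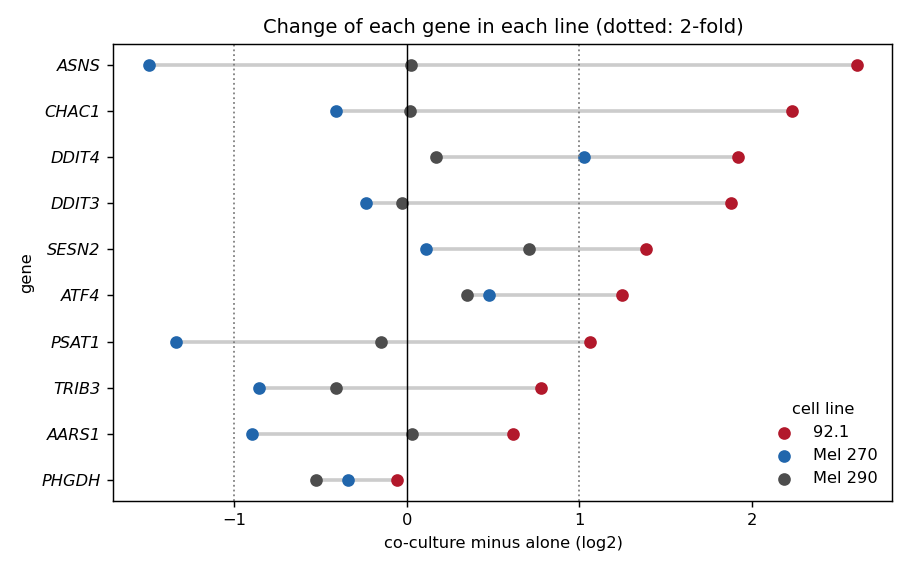
Co-culture minus alone on the log2 scale (horizontal axis) for each of the 10 genes (vertical axis), 1 point per cell line; grey bars join the 3 lines and dotted lines mark a 2-fold difference. The 92.1 point is the rightmost for every gene, from 2.61 for ASNS to -0.06 for PHGDH.

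ATF4 itself was higher in co-culture in each line. It had 11.29 against 10.05 alone in 92.1, 10.99 against 10.52 in Mel 270 and 11.15 against 10.80 in Mel 290, a mean difference of 0.69 ± 0.49 (SD, n = 3 lines). The levels of the lines ran from 10.99 to 11.29 in co-culture and from 10.05 to 10.80 alone. On a further ATF4 probe set the differences were smaller, 0.80 in 92.1, 0.06 in Mel 270 and 0.32 in Mel 290. There Mel 290 in co-culture (10.89) stood below Mel 270 alone (10.93). In Mel 270 ATF4 mRNA therefore stood slightly higher on both probe sets while ASNS stood lower.

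DDIT3 encodes CHOP, a C/EBP family factor that ATF4 induces and that can promote cell death. Its signal was 8.81 against 6.93 alone in 92.1 (3.67-fold higher), 8.10 against 8.33 in Mel 270 and 9.46 against 9.49 in Mel 290. Growth alone in 92.1 gave the lowest of the 6 values, and both values of Mel 290 were above those of the other lines. TRIB3, a pseudokinase that binds ATF4 and DDIT3 and limits the response, had 8.30 against 7.52 alone in 92.1, 7.08 against 7.93 in Mel 270 and 7.48 against 7.89 in Mel 290. It was higher in co-culture in 92.1 and lower in both other lines, and no line reached 2-fold.

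PHGDH and PSAT1 catalyse successive steps of serine synthesis, and they followed cell line more than culture. PHGDH, the entry enzyme, had 9.69 in co-culture and 10.22 alone in Mel 290, against 5.96 and 6.02 in 92.1 and 6.07 and 6.41 in Mel 270. The values of 92.1 and Mel 270 were near the filter level. PHGDH was the only one of the 10 genes that was lower in co-culture in all 3 lines, by differences of -0.06 to -0.53, though after cyclic loess that in 92.1 was 0.01. PSAT1, the following aminotransferase, had 10.03 against 8.97 alone in 92.1, 4.58 against 5.91 in Mel 270 and 8.49 against 8.64 in Mel 290. The Mel 270 culture with T cells was below the filter level, and with low values raised to 5.80 its difference of -1.34 shrank to -0.11. The 2-fold lower value of PSAT1 in Mel 270 thus rests on a signal below the filter level.

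AARS1, the alanyl-tRNA synthetase, had 11.17 against 10.55 alone in 92.1, 10.03 against 10.92 in Mel 270 and 10.65 against 10.61 in Mel 290. The direction in each line was that of ASNS, at a smaller size (0.61, -0.90 and 0.03). CHAC1, which breaks down glutathione, had 10.78 against 8.55 alone in 92.1, 7.98 against 8.39 in Mel 270 and 7.55 against 7.53 in Mel 290. The 92.1 culture with T cells stood above the other 5 arrays, 4.70-fold over its partner alone.

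SESN2 and DDIT4 (also called REDD1) both restrain the growth kinase mTORC1, SESN2 as a leucine sensor. SESN2 had 8.76 against 7.37 alone in 92.1, 7.94 against 7.83 in Mel 270 and 8.06 against 7.36 in Mel 290. DDIT4, which hypoxia and glucocorticoids also induce, had 9.02 against 7.11 alone in 92.1, 10.29 against 9.26 in Mel 270 and 8.40 against 8.22 in Mel 290. Both were higher in co-culture in all 3 lines, by 0.73 ± 0.64 and 1.04 ± 0.87 on average (SD, n = 3 lines). Together with ATF4 they were the only ones of the 10 genes that were higher in co-culture in Mel 270. SESN2 ran from 7.94 to 8.76 in co-culture and from 7.36 to 7.83 alone, and DDIT4 from 8.40 to 10.29 and from 7.11 to 9.26.

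Levels between lines, averaged over the 2 cultures of each, are a different contrast from that by which the genes were chosen. The choice was still made with results of these arrays known. These levels were tested with limma over all 13808 genes. Each line was set against the mean of the other lines. In 92.1 1 of the 10 genes was called higher (9.73% of all tested genes) and 1 lower (6.18%). In Mel 270 1 was called higher (6.83%) and 2 lower (7.62%), and in Mel 290 1 higher (11.3%) and 0 lower (14.9%). PHGDH was 3.84 ± 0.16 (SE) higher in Mel 290, 14.3-fold, at 9.95 against 6.12 in the other lines (adjusted p = 0.00056 in limma). PSAT1 differed by -3.79 ± 0.48 in Mel 270 (adjusted p = 0.013 in limma), with a mean of 5.24, below the filter level, against 9.03 in the other lines. With low values raised to 5.80 the difference was -3.18 (adjusted p = 0.008 in limma). It was 2.59 ± 0.48 higher in 92.1 (adjusted p = 0.029 in limma), or 2.29 with low values raised, and PHGDH differed by -2.11 there and by -1.73 in Mel 270. The contrasts of a gene sum to 0 over the lines, so its calls in different lines are not independent. PHGDH had means of 5.99 in 92.1 and 6.24 in Mel 270, so both lower calls mirror its level in Mel 290. PSAT1 had a mean of 9.50 in 92.1, against 8.57 in Mel 290 and 5.24 in Mel 270. The third line pattern was DDIT4, 1.59 ± 0.36 higher in Mel 270 (adjusted p = 0.047 in limma), a call lost without a filter (adjusted p = 0.053), after cyclic loess (0.065) and without a culture term (0.19). DDIT3 in Mel 290 (1.43 ± 0.46, adjusted p = 0.080 in limma) and CHAC1 in 92.1 (1.80 ± 0.56, adjusted p = 0.092 in limma) did not pass. The 2 arrays of a line are its different cultures, so these errors hold unequal responses of the lines and not the spread between repeat cultures. Such an unequal response was what was known of ASNS when the genes were chosen.

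The wider pathway was read from 8 lists of 86 other genes, of which 81 were tested. Over the 3 lines 1 of the 81 rose in co-culture in limma and 0 fell, beside 0.413% and 0.0362% of all tested genes. With a threshold of 0.05 on the unadjusted p, 15 of the 81 were higher (18.5%) and 8 lower (9.88%), beside 7.02% and 13% of all tested genes. The gene that rose was PMAIP1, which encodes the pro-apoptotic protein NOXA: it had 11.83 against 8.18 alone in 92.1, 9.64 against 6.40 in Mel 270 and 10.52 against 8.11 in Mel 290. Its mean difference was 3.10 ± 0.63 (SD, n = 3 lines, adjusted p = 0.023 in limma, higher in 3 of 3 lines), and without cell line as a block the adjusted p was 0.50. Leaving out Mel 270 also called WARS1 (3.06, adjusted p = 0.019 in limma) higher and SESN3 (-1.44, adjusted p = 0.049 in limma) lower. Leaving out Mel 290 called CEBPD (2.85, adjusted p = 0.039 in limma) higher. These fits held 2 lines each. In Mel 270, the line left out, SESN3 was higher by 0.55 and WARS1 had its smallest difference, 1.61. CEBPD had its smallest difference, 0.65, in Mel 290.

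Amino acid enzymes and transporters known as ATF4 targets were mostly higher in co-culture in 92.1 and mostly lower in Mel 270. In 92.1 9 of its 10 tested genes were higher in co-culture and 4 at least 2-fold so, in Mel 270 9 were lower, and in Mel 290 6 were lower. Of all tested genes 39.9% were higher in 92.1 and 3.63% at least 2-fold so, and 57.3% were lower in Mel 270 and 49.2% in Mel 290. SLC7A5, the exception in Mel 270, was higher by 0.54 there and by 0.53 in 92.1, and was named after its values were seen. Its medians were 0.58, -0.56 and -0.15 in 92.1, Mel 270 and Mel 290. CTH, which makes cysteine from cystathionine, had 9.73 against 7.50 alone in 92.1, 6.65 against 8.01 in Mel 270 and 8.23 against 7.80 in Mel 290. SLC7A11, the cystine importer, had 11.43 against 9.38 alone in 92.1, 9.59 against 10.65 in Mel 270 and 8.59 against 9.64 in Mel 290. It was named after its values were seen. SLC1A4, a transporter of small neutral amino acids, differed by 1.76, -0.29 and 0.51, and PCK2, the mitochondrial form of phosphoenolpyruvate carboxykinase, by 1.52, -0.52 and -0.15, in the same order of lines. None of these passed over the 3 lines (adjusted p of 0.44 to 0.99 in limma).

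**Figure D3:**
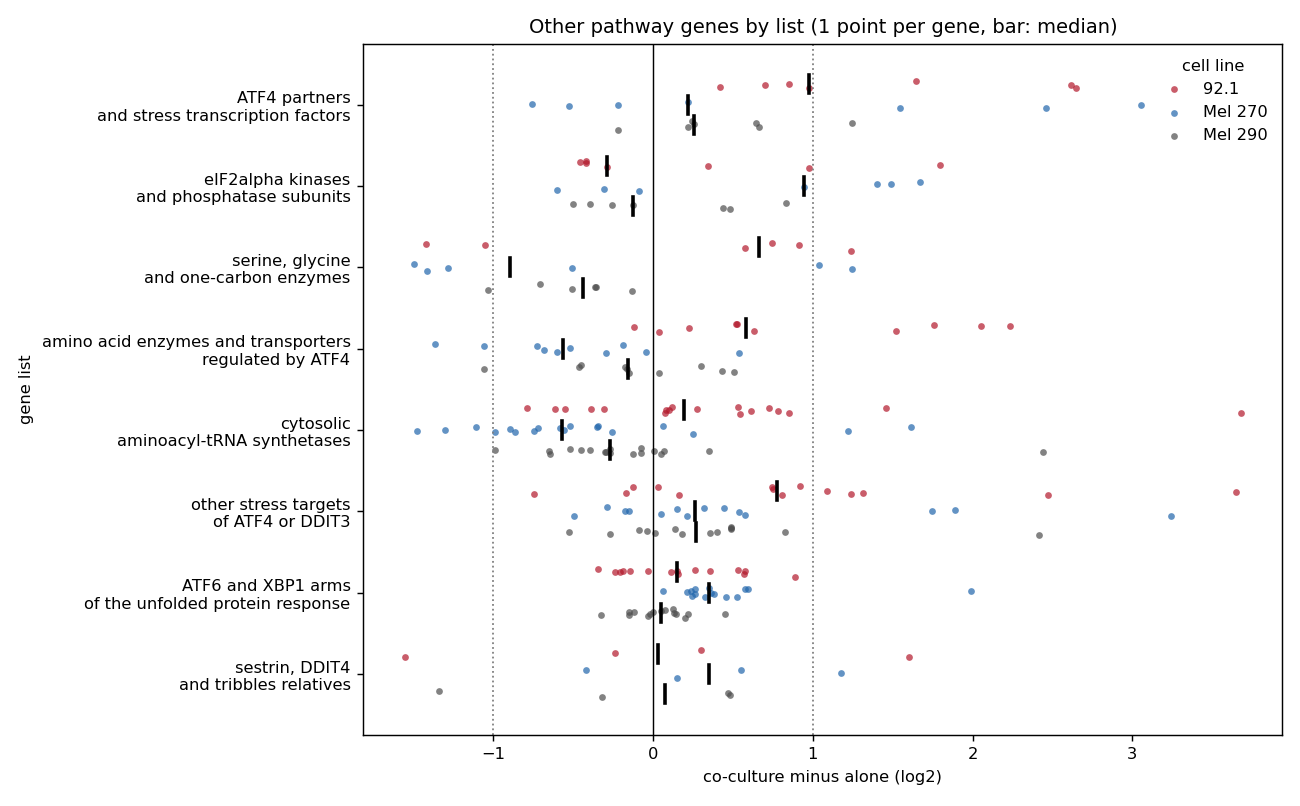
Co-culture minus alone on the log2 scale (horizontal axis) for 81 other pathway genes in 8 lists (vertical axis); each point is 1 gene in 1 cell line, black bars are list medians and dotted lines mark a 2-fold difference. The medians of serine, glycine and carbon unit enzymes, of amino acid enzymes and transporters and of tRNA synthetases lie above 0 in 92.1 and below 0 in Mel 270.

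Of 18 cytosolic aminoacyl-tRNA synthetases, which load amino acids onto tRNAs, 13 were higher in co-culture in 92.1, 4 in Mel 270 and 5 in Mel 290, beside 39.9%, 42.7% and 50.8% of all tested genes. Their medians were 0.20, -0.57 and -0.27. WARS1, the tryptophanyl-tRNA synthetase and a known interferon-gamma target, had the largest mean difference of the list, 2.58 ± 1.04 (SD, n = 3 lines, higher in 3 of 3 lines), and did not pass (adjusted p = 0.075 in limma). CARS1 differed by 1.46, 1.22 and 0.01, and FARSB by -0.79, -1.47 and -0.99, without passing (adjusted p of 0.21 and 0.078). The 6 synthetase genes with TGATGNAA in the promoter (CARS1, GARS1, IARS1, MARS1, NARS1 and TARS1) were all higher in 92.1, with a median of 0.63, and 5 of them lower in Mel 270, with a median of -0.74. The 9 with a promoter in the table but without these letters had medians of 0.08 in 92.1 and -0.52 in Mel 270, and 5 of them were higher in 92.1 and 6 lower in Mel 270. In Mel 290 the medians were -0.03 with the letters and -0.27 without. Among the 9 without them, EPRS1 differed by 0.78 in 92.1 and -0.74 in Mel 270, and SARS1 by 0.61 and -1.11. WARS1, also without them, was higher by 3.68 and 1.61 there. Whether the letters go with the differences was not tested.

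Among serine, glycine and carbon unit enzymes, 4 of 6 were higher in 92.1, 2 in Mel 270 and 0 in Mel 290, with medians of 0.66, -0.89 and -0.43. Of all tested genes 39.9%, 42.7% and 50.8% were higher. PSPH, the last enzyme of serine synthesis, had 9.31 against 8.40 alone in 92.1, 7.36 against 8.85 in Mel 270 and 6.69 against 7.40 in Mel 290, and was named after its values were seen. The mitochondrial MTHFD2 was 1.24 and 1.25 higher in 92.1 and Mel 270 and differed by -0.13 in Mel 290. The cytosolic SHMT1 differed by -1.24 ± 0.20 (SD, n = 3 lines, lower in 3 of 3 lines) and just missed the threshold (adjusted p = 0.053 in limma), and MTHFD1 differed by -0.99 ± 0.46 (adjusted p = 0.10).

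Among partners of ATF4, the C/EBP factors CEBPD and CEBPB were higher in co-culture in every line. For CEBPD the difference was 2.65 in 92.1, 3.05 in Mel 270 and 0.65 in Mel 290. In the same order of lines it was 1.65, 1.55 and 0.66 for CEBPB, and 0.98, 2.46 and 1.25 for the stress factor ATF3. None passed over the 3 lines (adjusted p of 0.085 to 0.11 in limma). NUPR1, a stress-induced chromatin protein named after its values were seen, was 2.61 higher in 92.1 and differed by -0.22 and 0.22 in Mel 270 and Mel 290. CEBPG differed by 0.86, -0.53 and 0.26 and JDP2 by 0.70, -0.76 and -0.22, both also named after their values were seen. Of the 7 genes of this list, 7 were higher in 92.1, 4 in Mel 270 and 6 in Mel 290. The shares of all tested genes were 39.9%, 42.7% and 50.8%. Of the eIF2alpha kinases, the RNA-activated EIF2AK2 (PKR) was 0.98, 1.40 and 0.44 higher in 92.1, Mel 270 and Mel 290. The amino acid sensing kinase EIF2AK4 (GCN2), named, like EIF2AK1, after its values were seen, was lower in all 3 lines (-0.46, -0.60 and -0.50), as was the haem-regulated EIF2AK1 (-0.41, -0.09 and -0.13). EIF2AK3 (PERK), named in the same way, had no common direction (-0.28, 0.95 and -0.39). The phosphatase subunits PPP1R15A (GADD34) and PPP1R15B, which reverse the phosphorylation, differed by 1.26 ± 0.69 and 0.95 ± 0.67 (SD, n = 3 lines). None of these kinases and subunits passed (adjusted p of 0.11 to 0.92 in limma).

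Of 14 other stress targets 11 were higher in co-culture in 92.1, 10 in Mel 270 and 10 in Mel 290, beside 39.9%, 42.7% and 50.8% of all tested genes. At least 2-fold higher were 5, 3 and 1 of them, beside 3.63%, 5.29% and 2.07% of all tested genes. GDF15, a stress-induced cytokine, had 10.52 against 8.04 alone in 92.1, 12.10 against 11.88 in Mel 270 and 6.42 against 6.51 in Mel 290. VEGFA differed by 0.81, 1.89 and 0.49 in the same order of lines. The ATF6 and XBP1 arms, which raise chaperones of the endoplasmic reticulum, had 1 of 15 genes at least 2-fold apart in any line. It was DNAJB9, 1.99 higher in Mel 270, where 5.29% of all tested genes were at least 2-fold higher. The medians of these 15 genes were 0.15 in 92.1, 0.36 in Mel 270 and 0.05 in Mel 290. All 15 were higher in Mel 270, beside 42.7% of all tested genes. ERN1 and XBP1 were higher in every line. In 92.1, Mel 270 and Mel 290 ERN1 differed by 0.57, 0.53 and 0.45, and XBP1 by 0.89, 0.36 and 0.13. Relatives of SESN2, DDIT4 and TRIB3 had no common direction: SESN1 differed by 0.65 ± 0.47, TRIB2 by 0.75 ± 0.76 and SESN3 by -0.78 ± 1.16 (SD, n = 3 lines).

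The profile of ASNS over the 6 arrays was compared with that of the 6262 tested genes, the other 9 left out, that ranged over at least 1 log2 unit. These correlations describe 6 arrays that share lines and carry no p. The highest Pearson r was that of EPRS1, the glutamyl-prolyl-tRNA synthetase (r = 0.923), followed by the ciliary gene ARMC9 (0.884), the calcineurin regulator RCAN2 (0.824) and SARS1, the seryl-tRNA synthetase (0.792). OGT, CD22, TPTE2P3 and ANKRD20A11P came next at 0.788 to 0.770. EPRS1 had 10.18 against 9.40 alone in 92.1, 9.84 against 10.58 in Mel 270 and 9.72 against 10.02 in Mel 290, and SARS1 differed by 0.61, -1.11 and -0.45. The lowest r belonged to SQLE, squalene epoxidase of cholesterol synthesis (-0.929), the small nucleolar RNA SNORD82 (-0.847), the acetyl-CoA synthetase ACSS2 (-0.826) and EHD4 (-0.805). SQLE had 11.45 against 12.31 alone in 92.1, 11.72 against 11.07 in Mel 270 and 11.78 against 11.99 in Mel 290. Within the 10 genes r with ASNS ran from -0.097 for PHGDH to 0.663 for TRIB3 and SESN2.

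**Figure D4:**
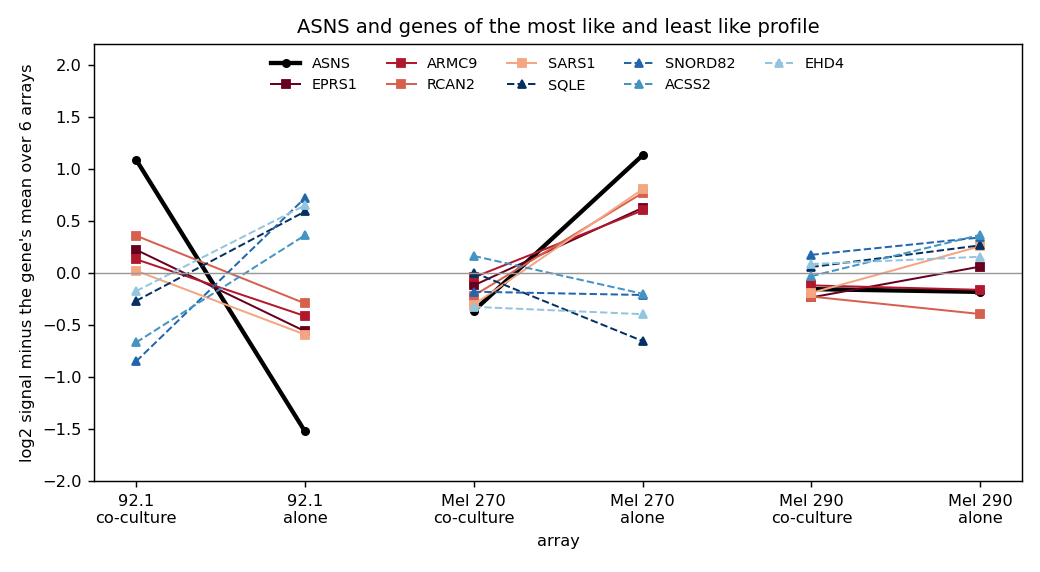
Log2 signal minus the gene's own mean (vertical axis) on the 6 arrays (horizontal axis, co-culture left of alone in each line) for ASNS in black, the 4 genes with the highest r in red (solid) and the 4 with the lowest r in blue (dashed). Red lines tilt with ASNS in 92.1 and Mel 270 at a smaller size, and blue lines tilt the other way in 92.1.

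Melanocyte genes were lower in co-culture in Mel 270, as were most of the listed amino acid enzymes and transporters. There TYR had 9.63 against 11.72 alone and MITF 8.93 against 11.03, while in 92.1 TYR had 9.39 against 10.96 and MITF differed by -0.79. All 7 melanocyte markers with a probe set were lower in co-culture in both lines, beside 60.1% of all tested genes in 92.1 and 57.3% in Mel 270. Among amino acid genes, ASNS, PSAT1, CTH and SLC7A11 differed in opposite directions between these lines. SLC7A5 and MTHFD2 were higher in both, and SHMT1 and MTHFD1 lower in both. In these bulk samples fewer cells expressing a gene and less RNA per cell cannot be told apart.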

How the data were processed

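The 6 arrays were used as deposited. The authors made the log2 values with Affymetrix Expression Console 1.2.0.20, per the submitters' processing notes. How signals were background-corrected, summarized and normalized is not given in the sources used here. Probe sets with 1 gene symbol in the platform annotation were named (19460 of 33297), with symbols updated through a RefSeq table (19429 matched). A probe set shared by PHGDH and MZT2B was left out. The probe set with the highest mean stood for a gene, and 13808 genes at or above the 25th percentile (5.80) were tested with limma 3.58.1 in R 4.3.3 (lmFit, eBayes, Benjamini-Hochberg, threshold 0.05). Cell line was a block because each line was in both groups, which left 2 residual degrees of freedom plus a prior of 3.10. P-values measure the spread between lines. The number of arrays limits the precision.

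The 10 genes, the lists and the tests were chosen with earlier results of these data known. The text names all 10, of each list the called genes and up to 3 with the largest mean difference, and the 8 genes most like and 4 least like ASNS over the arrays. Alternatives were no block, other filters, cyclic loess, raised low values, averaged probe sets, no culture term and each line left out. Listed genes lacking such a probe set are not reported here. The limma step was tested on simulated data with the same change of a gene in every line. That test does not cover genes whose lines differ, such as ASNS.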

Additional observations from a re-analysis of the deposited data

Results flagged for a closer look

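Among the 10 genes and the 81 other tested pathway genes, 4 had a difference of at least 2-fold in opposite directions in a pair of lines. The difference between the lines was not tested, since each line had 1 array per culture. The gap between the difference in 92.1 and that in Mel 270 was 4.10 for ASNS, 2.39 for PSAT1, 3.60 for CTH and 3.11 for SLC7A11, on the log2 scale. That of PSAT1 rests on a Mel 270 value below the filter level. Of all 13808 tested genes 33 had such a pair.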

How the results depend on the processing

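The 30 differences of the 10 genes in single lines were recomputed after cyclic loess, with low values raised to 5.80 and with probe sets averaged. Of the recomputed values 89 moved by less than the SD over lines, which is a wide measure where lines differ (2.07 for ASNS). Most of them could not move. Averaging could change only ATF4, which had a further probe set, and raising low values only PSAT1 in Mel 270. With low values raised PSAT1 in Mel 270 moved to -0.11, which left 1 of the 10 genes at least 2-fold lower there. The sign turned for DDIT3 in Mel 290 (-0.03, and 0.02 after loess) and PHGDH in 92.1 (-0.06, and 0.01 after loess). Over all genes 57 were called higher and 5 lower. Without the replicate block (cell line) 18 and 0 were called, and 0 of the other pathway genes, with PMAIP1 at an adjusted p of 0.50. The count of lower genes was 9 with a filter at the median and 1 after cyclic loess. Leaving out each line in turn gave 47 to 76 genes higher and 2 to 9 lower, and 1 to 2 pathway genes higher and 0 to 1 lower. The lowest counts of lower genes came without 92.1 and the highest without Mel 270. In the line contrasts PHGDH and PSAT1 kept their calls under all 6 alternatives, and DDIT4 in Mel 270 lost its call under 3 of them. No line could be left out of a line contrast. Low signal limits PSAT1 in Mel 270 and PHGDH in 92.1 and Mel 270.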
